A study of Mus musculus with 32 samples.

Results

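The 10 genes described here mark the neural plate border and the neural crest, and were followed through retinal organoid differentiation in cells with and without Mettl3. They are Tfap2a, Tfap2b, Tfap2c, Sox9, Sox10, Foxd3, Snai2, Msx1, Msx2 and Ngfr. They were taken by symbol from the deposited expression table, which held a single row for each of the 10 among 55492 rows, of which 34331 were above 0 in at least 1 library. Polyadenylated RNA was measured at days 0, 2, 4 and 6, day 0 being mouse embryonic stem cells and the later days organoids. The WT cells are the Rx:GFP line, and the KO cells carry a knockout of Mettl3, the gene of the catalytic subunit of the complex that methylates adenosine in messenger RNA (m6A). The other two groups are the KO line overexpressing wild-type METTL3 fused to a domain called GRBD, kept without Dex or given Dex at 10 µM, which the series describes as a cytosolic and a nuclear form of the fusion. They are called "no Dex" and "Dex" below, and Dex is read as dexamethasone, a synthetic glucocorticoid. Organoid medium held AGN at 0.1 µM in all lines, an agent the labels do not spell out. Some day 0 samples are labelled as given Dex although the treatment text speaks of 2, 4 and 6 days, and the labels were followed. Each of the 16 groups had 2 libraries, with separate library preparation and sequencing. Separate cultures are not stated, so p-values measure the spread between libraries, which may be technical. Each line is a single line by its label, and Dex was given only to cells that carry the fusion.

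The neural plate border is the strip of ectoderm between the neural plate and the future epidermis. BMP, WNT and FGF signals induce border genes there, among them Msx1, Msx2 and Tfap2a, and border cells can then turn on the crest genes Foxd3, Snai2, Sox9 and Sox10, leave the neural tube and form peripheral neurons, glia, pigment cells and facial skeleton. Several of these genes have other roles too: Foxd3 and Tfap2c are active in stem cells, Sox9 in neural and retinal progenitors, Tfap2b in dorsal brain and retinal interneurons, and Msx1 and Msx2 along the dorsal midline of the neural tube. The optic vesicle, which retinal organoids model, is a part of the forebrain that does not itself form crest.

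All 10 are protein-coding genes. On GRCm38 (mm10) the homeobox genes are Msx1 at chr5:37820485-37824583 on the minus strand and Msx2 at chr13:53466884-53473074, also minus. The genes of the AP-2 family of transcription factors are Tfap2a at chr13:40715302-40738376 (minus), Tfap2b at chr1:19208914-19238576 (plus) and Tfap2c at chr2:172549593-172558622 (plus). The SOX factor genes are Sox9 at chr11:112782224-112787760 (plus) and Sox10 at chr15:79154908-79165240 (minus). Foxd3, a forkhead factor gene, lies at chr4:99656299-99658622 (plus), and Snai2, the gene of a zinc-finger repressor of the Snail family, at chr16:14705852-14709385 (plus). Ngfr, the gene of the p75 neurotrophin receptor, lies at chr11:95568818-95587735 (minus). Tfap2a overlaps 3 antisense genes, whose values reached at most 0.21 FPKM, and Foxd3 contains a microRNA row listed at 0. No other of the 10 genes overlaps an annotated gene.

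Promoter windows, from 250 bases before to 50 bases after a transcript start, were found in the RefSeq table (GRCm38.p6) for 6 of the 10 genes, 7 windows in all. Those of the pair with the largest day 6 differences between KO and WT are printed here in the direction of transcription. In all, 5 motifs were searched on both strands: the AP-2 site GCCNNNGGC, the Snail-type E-box CAGGTG, the TCF/LEF site CTTTGAT, the SOX core ACAATG and the MSX homeodomain site TAATTG. Capitals mark every match, on either strand, which is the E-box in Msx1 and the homeodomain letters in Tfap2b.
Msx1, chr5:37824536-37824835, minus strand: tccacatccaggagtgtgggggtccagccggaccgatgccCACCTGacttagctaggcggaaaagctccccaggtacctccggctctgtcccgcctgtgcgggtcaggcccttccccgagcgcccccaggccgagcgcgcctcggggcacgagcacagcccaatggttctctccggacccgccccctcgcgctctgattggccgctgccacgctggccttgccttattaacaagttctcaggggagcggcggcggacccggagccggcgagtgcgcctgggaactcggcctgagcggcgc
Tfap2b, chr1:19211804-19212103, plus strand: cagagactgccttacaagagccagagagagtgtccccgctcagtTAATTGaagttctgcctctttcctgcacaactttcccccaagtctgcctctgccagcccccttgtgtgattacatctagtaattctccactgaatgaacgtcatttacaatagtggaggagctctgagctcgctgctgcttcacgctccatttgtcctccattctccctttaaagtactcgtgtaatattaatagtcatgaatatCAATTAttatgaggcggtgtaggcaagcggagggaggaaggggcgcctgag
The Msx1 window held 1 match to the E-box, letters found in 20.2% of all 32851 windows of this length in the table. The Tfap2b window held 2 matches to the homeodomain letters, which 8% of all windows hold at least once. One Tfap2a window also held them once. The AP-2 letters (16.6% of all windows), the TCF/LEF letters (3.7%) and the SOX letters (12.6%) were in none of the 7 windows. A match is a description of the sequence, and its absence concerns only these letters in these windows.

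Values are FPKM, fragments per kilobase of transcript, scaled to the library's mapped fragments. Libraries were estimated to hold 28.3 M to 54.3 M fragments (M, mega), at which 3 fragments correspond to between 0.009 and 0.062 FPKM, depending on gene and library, counting error only. Differences were tested with limma on log2(FPKM + 1) over 16276 genes with at least 1 FPKM in 2 or more libraries. Calls needed an adjusted p (Benjamini-Hochberg, two-sided) under 0.05, and log2 changes below are on that scale, with their standard error (SE) and limma's adjusted p. The scale understates changes of genes with low values. All 10 genes passed the filter, but Tfap2b and Sox10 reached 1 FPKM in 6 of 32 libraries only, those of KO, no Dex and Dex at day 6, so that they could not have been tested without them. Snai2 (8 libraries) and Tfap2a (18) also passed through groups other than WT alone, so for these 4 genes a level above WT is in part what the filter asked for. Mettl3 transcripts were not lower in KO: they ranged from 32.51 to 41.21 FPKM in the 8 WT libraries and from 34.88 to 43.83 in the 8 KO libraries, and were higher in KO at day 0 (log2 change 0.30 ± 0.06 SE, adjusted p = 0.000417). A knockout need not lower the level of its transcript, so this neither tests nor contradicts the labels. The no Dex and Dex libraries had 44.46 to 75.06 FPKM of Mettl3.

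**Figure D1:**
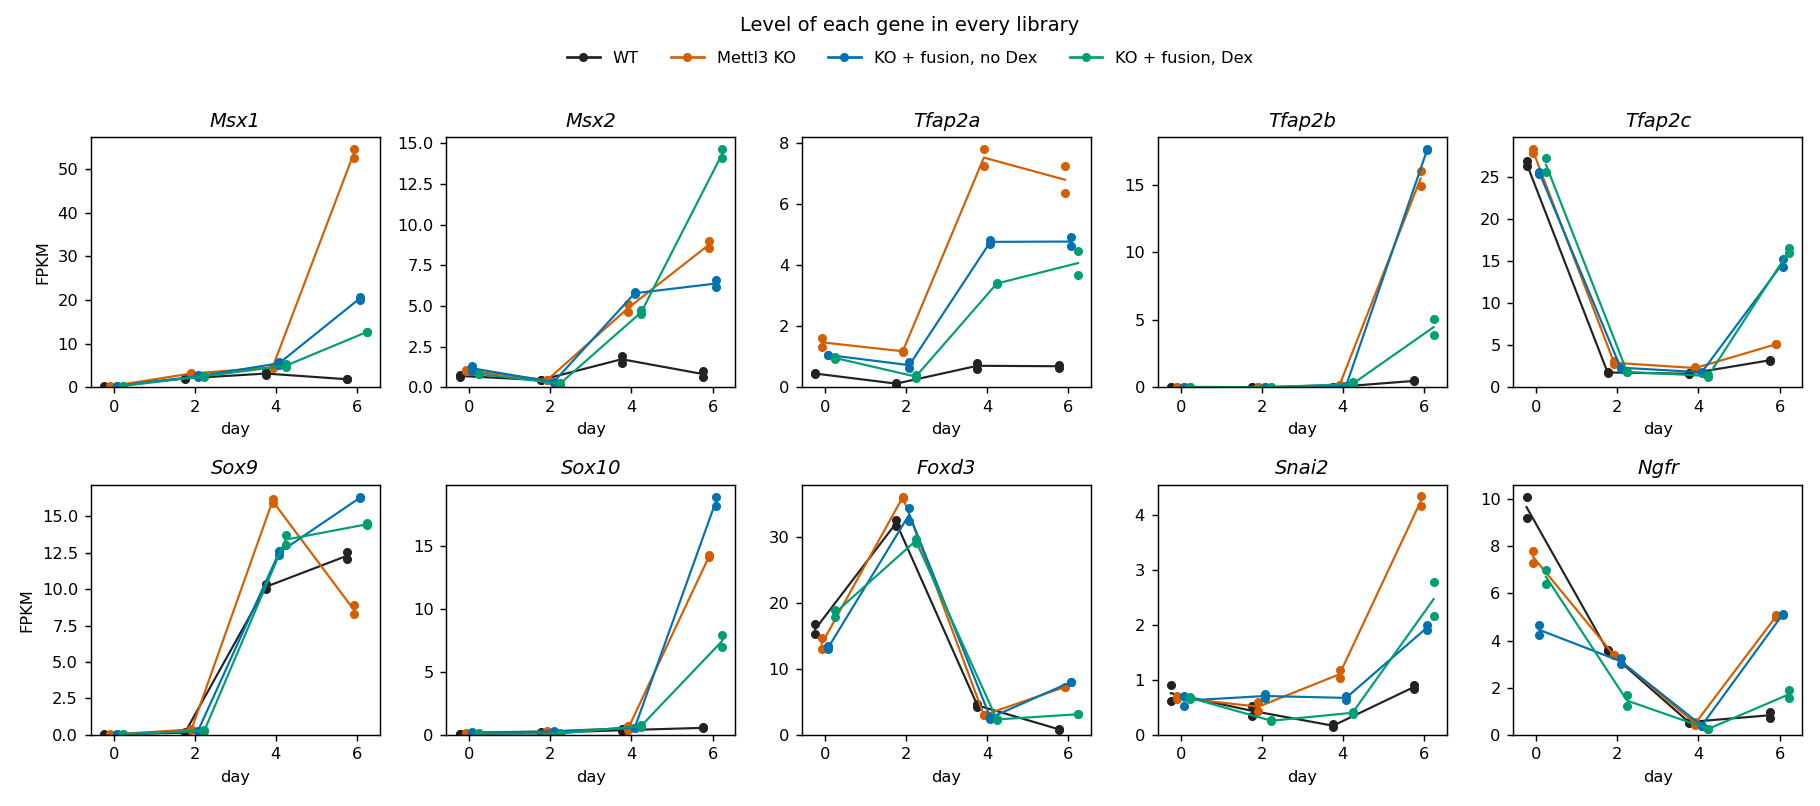
FPKM (linear axis from 0) of the 10 genes against day of differentiation. Each point is 1 library, each line joins the means of 2 libraries, and colour gives the group. At day 6 the WT libraries are lowest for every gene except Sox9, where KO is lowest.

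The clearest differences between the lines were at day 6. There, 9 of the 10 genes were higher in KO than in WT and Sox9 was lower, while over all genes 30.9% were called higher and 34.2% lower. The median log2 change of the 10 was 2.18 against -0.03 over all genes tested. The libraries of KO and WT did not overlap for any of the 10, as was the case for 81.5% of all genes tested. No pair of the 4 groups overlapped in its day 6 libraries for any of the 10 either, against 32.8% of all genes with no overlapping pair. Not every such pair was called different: Ngfr had 5.07 and 5.01 FPKM in KO against 5.09 and 5.14 in no Dex. Tfap2b, Foxd3 and Ngfr were not called in no Dex against KO, nor Tfap2a and Tfap2c in Dex against no Dex. The 10 genes were chosen with earlier results of these data known, so the shares over all genes are no independent test. Tfap2a, Tfap2b, Sox10 and Snai2 also passed the filter through groups other than WT, which favours a level above WT. Both limits hold for the other counts against WT below, the interaction included.

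Msx1 and Msx2, border genes that respond to BMP, were among the largest. Msx1 had 1.87 and 1.82 FPKM in the WT libraries, 52.54 and 54.54 in KO, 20.1 and 20.76 in no Dex, and 12.61 and 12.7 in Dex. It was thus highest in KO, 29-fold above WT (log2 change 4.26 ± 0.09 SE, adjusted p = 2.78e-18), and the groups carrying the fusion lay between. Msx2 had 0.99 and 0.64 FPKM in WT, 8.57 and 8.99 in KO, 6.14 and 6.61 in no Dex, and 14.63 and 14.08 in Dex. Its order differed from that of Msx1: Dex was highest, above KO and then no Dex, with all 3 above WT (KO against WT 2.44 ± 0.09 SE, adjusted p = 6.57e-15).

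Of the AP-2 genes, Tfap2b was the most changed in KO. It had 0.52 and 0.43 FPKM in WT, 16.03 and 14.92 in KO, 17.63 and 17.57 in no Dex, and 5.08 and 3.84 in Dex. KO and no Dex were therefore near each other and far above WT (KO against WT 3.48 ± 0.08 SE, adjusted p = 2e-17), with Dex between. Tfap2a, which acts at the border before crest genes come on, had 0.64 and 0.74 FPKM in WT, 6.36 and 7.24 in KO, 4.62 and 4.93 in no Dex, and 4.47 and 3.67 in Dex. All libraries with the Mettl3 knockout exceeded both WT libraries, and KO was highest (2.20 ± 0.08 SE, adjusted p = 1.99e-14). Tfap2c, known also from germ cells and trophoblast, had 3.14 and 3.3 FPKM in WT, 5.14 and 5.13 in KO, 14.28 and 15.29 in no Dex, and 16.01 and 16.55 in Dex. Like Sox9 it was highest in the 2 fusion groups, and it was little higher in KO than in WT (0.54 ± 0.06 SE, adjusted p = 6.77e-08).

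Among the crest transcription factor genes, Sox10, which is kept on in glial and pigment precursors, had 0.51 and 0.59 FPKM in WT, 14.19 and 14.3 in KO, 18.2 and 18.95 in no Dex, and 7.03 and 7.93 in Dex. It followed the order of Tfap2b, with a KO change of 3.30 ± 0.09 SE (adjusted p = 1.78e-16). Foxd3 had 0.94 and 0.76 FPKM in WT, 7.24 and 7.27 in KO, 8.01 and 8.07 in no Dex, and 3.08 and 3.15 in Dex, again with Dex between WT and the other two (KO against WT 2.16 ± 0.06 SE, adjusted p = 8.38e-17). Snai2, whose product represses E-cadherin, had 0.91 and 0.83 FPKM in WT, 4.15 and 4.33 in KO, 1.91 and 1.99 in no Dex, and 2.78 and 2.15 in Dex. It was highest in KO (1.49 ± 0.09 SE, adjusted p = 1.76e-11). Sox9 went the other way, with 12.55 and 12.03 FPKM in WT, 8.88 and 8.31 in KO, 16.23 and 16.33 in no Dex, and 14.51 and 14.37 in Dex. KO was its lowest group (-0.47 ± 0.04 SE, adjusted p = 1.16e-08).

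Ngfr, the one receptor gene of the 10 and a surface marker used to sort crest cells, had 0.95 and 0.71 FPKM in WT, 5.07 and 5.01 in KO, 5.09 and 5.14 in no Dex, and 1.55 and 1.9 in Dex. KO and no Dex were alike in level and 6.07-fold (KO) above WT (1.73 ± 0.08 SE, adjusted p = 7.02e-13), and Dex lay much nearer to WT.

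**Figure D2:**
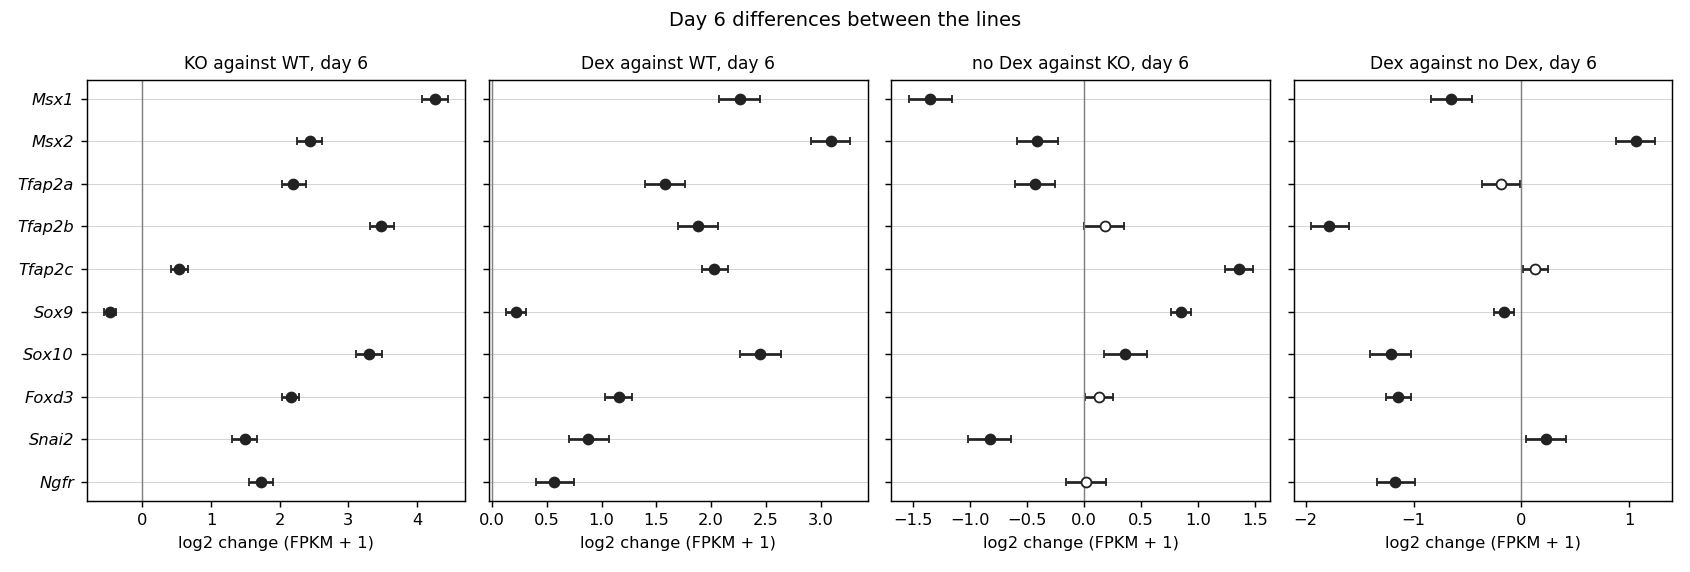
Day 6 log2 changes of FPKM + 1 for the 10 genes in 4 comparisons. Points are limma estimates from 2 libraries per group, bars 95% confidence intervals, filled points are called and open points are not; the axes differ between panels. All 10 points lie above 0 in Dex against WT, while in Dex against no Dex most lie below 0 and Msx2 lies at 1.06.

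Adding the fusion without Dex was compared with KO at day 6. Tfap2c (1.36 ± 0.06 SE), Sox9 (0.85 ± 0.04) and Sox10 (0.36 ± 0.09) were higher in no Dex, with adjusted p of 4.29e-13, 6.71e-12 and 0.00294. Msx1 (-1.35 ± 0.09), Snai2 (-0.83 ± 0.09), Tfap2a (-0.43 ± 0.08) and Msx2 (-0.41 ± 0.09) were lower, with adjusted p of 3.48e-10, 2.32e-07, 0.000263 and 0.000599. Tfap2b, Foxd3 and Ngfr were not called, with changes of 0.18, 0.13 and 0.02 (adjusted p = 0.0926, 0.0663 and 0.899), though Foxd3 was called on rescaling (0.14, adjusted p = 0.0468). These 3 higher and 4 lower calls stand beside 21.1% and 27.9% over all genes. The Sox10 call was lost with a pseudocount of 0.1 (0.38, adjusted p = 0.308).

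In Dex against no Dex at day 6, groups whose labels differ only in Dex, 6 of the 10 genes were lower in Dex. Tfap2b was 3.95-fold lower in Dex (-1.78 ± 0.08 SE, adjusted p = 4.23e-12), and Sox10 (-1.21 ± 0.09), Ngfr (-1.17 ± 0.08) and Foxd3 (-1.14 ± 0.06) were 2.48-fold, 2.97-fold and 2.58-fold lower, with adjusted p of 3.74e-09, 1.48e-09 and 1.08e-11. Msx1 (-0.65 ± 0.09, adjusted p = 9.5e-06) and Sox9 (-0.16 ± 0.04, adjusted p = 0.00501) were lower by less, and the Sox9 call was lost with a pseudocount of 0.1 (-0.17, adjusted p = 0.358). Msx2 was 2.25-fold higher in Dex (1.06 ± 0.09, adjusted p = 9.89e-09). Snai2 passed narrowly (0.23 ± 0.09, adjusted p = 0.0481) and its call was lost with a pseudocount of 0.1 (adjusted p = 0.209), with no filter (adjusted p = 0.0944), on rescaling (adjusted p = 0.0647), in the 2 groups fitted alone (adjusted p = 0.227) and without Dex library 1 (0.09, adjusted p = 0.512), no Dex library 1 (0.21, adjusted p = 0.17) or no Dex library 2 (0.25, adjusted p = 0.0984). Tfap2a (-0.19, 95% interval -0.37 to -0.01, adjusted p = 0.0758) and Tfap2c (0.13, 0.01 to 0.25, adjusted p = 0.0698) were not called, though Tfap2a was without Dex library 1 (-0.31, adjusted p = 0.0175). Over all genes 23.8% were higher and 19% lower.

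KO against WT and Dex against no Dex share no library. Of the 9 genes higher in KO, 5 were lower in Dex (Tfap2b, Sox10, Foxd3, Ngfr and Msx1), 2 were higher (Msx2 and Snai2) and 2 were not called (Tfap2a and Tfap2c). Over all 5029 genes higher in KO, 25.2% were lower in Dex, 28.3% were higher and 46.5% were not called. Sox9 was called lower in both, its Dex call being the one lost with the smaller pseudocount.

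In Dex, none of the 10 genes was at or below its WT level at day 6. All 10 were higher than in WT, where 29.2% of all genes were called higher and 32.2% lower. The largest differences were in Msx2 (3.09 ± 0.09 SE, adjusted p = 4.59e-16), Sox10 (2.45 ± 0.09, adjusted p = 3.09e-14), Msx1 (2.26 ± 0.09, adjusted p = 7.73e-14) and Tfap2c (2.03 ± 0.06, adjusted p = 3.97e-16). The smallest were in Ngfr (0.57 ± 0.08, adjusted p = 6.89e-06) and Sox9 (0.22 ± 0.04, adjusted p = 0.000243), the last lost with a pseudocount of 0.1 (0.23, adjusted p = 0.164). Tfap2b (1.88), Tfap2a (1.58), Foxd3 (1.16) and Snai2 (0.88) lay between.

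Over time, the genes fell into different courses in WT. Foxd3 began at 15.29 and 16.73 FPKM in the WT stem cells, was at 31.68 and 32.58 at day 2, and fell to 4.66 and 4.24 at day 4 and to 0.94 and 0.76 at day 6. This day 2 peak was shared by all lines, with KO at 36.11 and 35.95, no Dex at 32.46 and 34.35 and Dex at 29.7 and 29.13. At day 4 Foxd3 was lower in KO than in WT (2.975 against 4.45 FPKM, -0.45 ± 0.06 SE, adjusted p = 1.08e-06), the reverse of day 6. From day 4 to day 6 Foxd3 went down further in WT (-1.56 ± 0.06 SE) but up in KO (1.05 ± 0.06), no Dex (1.34 ± 0.06) and Dex (0.31 ± 0.06). The adjusted p of these 4 steps were 1.07e-14, 3.92e-12, 9.05e-14 and 0.000105.

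Ngfr and Tfap2c also started high and dropped. Ngfr had 9.22 and 10.11 FPKM in WT stem cells and 0.56 and 0.52 at day 4. In KO it went from 7.82 and 7.29 to 0.4 and 0.56 over the same time, and then rose to its day 6 level (day 6 against day 4, 2.03 ± 0.08 SE, adjusted p = 5.49e-14). Ngfr also rose at this last step in no Dex (2.14 ± 0.08, adjusted p = 2.26e-14), in Dex (1.12 ± 0.08, adjusted p = 5.17e-10) and, by less, in WT (0.25 ± 0.08, adjusted p = 0.0144). The WT call was lost on rescaling (0.18, adjusted p = 0.0572), in the 2 groups fitted alone (adjusted p = 0.0746) and without WT day 4 library 2 (0.23, adjusted p = 0.0705) or WT day 6 library 1 (0.15, adjusted p = 0.194). Tfap2c was at 25.43 to 28.41 FPKM in all 8 stem cell libraries and at 1.28 to 2.42 in all 8 libraries of day 4. Its later rise was present in every line, from 0.69 ± 0.06 SE in WT and 0.90 ± 0.06 in KO to 2.50 ± 0.06 in no Dex and 2.87 ± 0.06 in Dex, with adjusted p between 7.31e-19 and 1.96e-09.

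Sox9 came on between days 2 and 4 in all lines. It stood at 0 to 0.04 FPKM in stem cells and at 0.12 to 0.39 at day 2. At day 4 it had 10.32 and 10 FPKM in WT, 16.17 and 15.92 in KO, 12.63 and 12.37 in no Dex, and 13.05 and 13.73 in Dex. KO was above WT at day 2, at low levels (0.365 against 0.145 FPKM, 0.25 ± 0.04 SE, adjusted p = 5.06e-05). It was also above WT at day 4 (0.61 ± 0.04 SE, adjusted p = 3.61e-10) and by day 6 below it. Over the last step Sox9 fell in KO (-0.83 ± 0.04, adjusted p = 2.2e-12) and rose in WT (0.25 ± 0.04, adjusted p = 4.08e-05), the latter lost with a pseudocount of 0.1 (0.27, adjusted p = 0.0954).

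Tfap2a and Msx2 were far apart between WT and the other lines by day 4. Tfap2a already differed in stem cells, with 0.46 and 0.44 FPKM in WT against 1.33 and 1.62 in KO (0.77 ± 0.08 SE, adjusted p = 3.97e-07). At day 4 KO stood at 7.25 and 7.8 FPKM and WT at 0.6 and 0.81 (2.32 ± 0.08, adjusted p = 2.2e-14), no Dex at 4.84 and 4.69, and Dex at 3.38 and 3.42. The KO level at day 6 was not called different from that at day 4 (-0.13 ± 0.08, adjusted p = 0.188), so that most of its rise came by day 4. Msx2 at day 4 had 1.93 and 1.52 FPKM in WT against 5.14 and 4.61 in KO, 5.83 and 5.73 in no Dex and 4.48 and 4.74 in Dex (KO against WT 1.11 ± 0.09, adjusted p = 1.37e-09). In WT it then fell (-0.59 ± 0.09, adjusted p = 6.28e-06), as did Msx1 (-0.54 ± 0.09, adjusted p = 2.91e-05), whereas both rose in KO (0.74 ± 0.09 and 3.29 ± 0.09, adjusted p = 3.54e-07 and 1.05e-16).

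Msx1, Tfap2b, Sox10 and Snai2 made most of their KO rise in the last 2 days. Msx1 was at 4.51 and 4.63 FPKM in KO at day 4, against 2.89 and 3.41 in WT. Tfap2b was at 0.16 and 0.17 in KO at that day, against 0.01 and 0 in WT, and Sox10 at 0.37 and 0.68 against 0.45 and 0.28. The day 6 against day 4 changes in KO were 3.82 ± 0.08 SE for Tfap2b and 3.33 ± 0.09 for Sox10 (adjusted p = 3.13e-18 and 1.14e-16). Sox10 in WT was not called over this step (0.19 ± 0.09, adjusted p = 0.0844). Snai2 was at 1.17 and 1.03 FPKM in KO at day 4 against 0.19 and 0.14 in WT (0.85 ± 0.09, adjusted p = 9.19e-08), and rose further by day 6 (1.32 ± 0.09, adjusted p = 1.11e-10).

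Whether KO against WT itself differed between day 6 and day 0 was tested as an interaction. All 10 differed, 9 upward and Sox9 downward, against 31.1% and 25.8% over all genes. The largest interactions were in Msx1 (4.19 ± 0.13 SE, adjusted p = 2.22e-15), Tfap2b (3.46 ± 0.12, adjusted p = 1.3e-14) and Sox10 (3.21 ± 0.13, adjusted p = 1.5e-13). For Dex against no Dex the interaction was positive for Msx2 and negative for 6 genes (over all genes, 22.7% and 25.9%), led by Tfap2b (-1.81 ± 0.12, adjusted p = 4.74e-10), Ngfr (-1.67 ± 0.12, adjusted p = 1.36e-09) and Foxd3 (-1.59 ± 0.08, adjusted p = 1.7e-11). Foxd3 and Ngfr were higher in Dex than in no Dex as stem cells (0.45 ± 0.06 and 0.50 ± 0.08, adjusted p = 3.07e-06 and 7.16e-05) and lower at day 6.

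Before day 6 fewer of the genes were called between lines, except in Dex against WT, with all 10 at day 4. Counts were near those of all genes in several comparisons. For KO against WT, 2 were higher and 2 lower at day 0 (all genes 18.4% and 29.8%), 5 and 0 at day 2 (37.5% and 21.3%), and 7 and 1 at day 4 (36.5% and 24%). The day 2 call of Foxd3 (0.16) was lost on rescaling (0.04, adjusted p = 0.539) and with a pseudocount of 0.1 (adjusted p = 0.0666). Foxd3 and Ngfr were the 2 lower in KO stem cells (-0.20 ± 0.06 SE and -0.32 ± 0.08, adjusted p = 0.00628 and 0.00389). Both calls were lost in the 2 groups fitted alone (adjusted p = 0.184 and 0.0711), and that of Foxd3 also without WT library 2 (-0.14, adjusted p = 0.0963) or KO library 2 (-0.12, adjusted p = 0.137). For no Dex against KO every call before day 6 was lower, with 2 genes at day 0 (19.3% higher and 29.8% lower over all genes), 4 at day 2 (14.8% and 22.2%) and 4 at day 4 (9.66% and 17%). Rescaling left 1 and 2 of these at days 0 and 2, and fitting the compared groups alone left 0 at day 2. Tfap2a was among them at each of these days (-0.26, -0.34 and -0.56, with adjusted p of 0.0142, 0.00361 and 6.17e-05), though the Tfap2a calls of days 0 and 2 were lost in the 2 groups fitted alone (adjusted p = 0.0893 and 0.0633), that of day 0 also without KO library 2 (-0.18, adjusted p = 0.172) or no Dex library 1 (-0.26, adjusted p = 0.0613) and that of day 2 without no Dex library 2 (-0.25, adjusted p = 0.067). For Dex against no Dex, 2 were higher and 1 lower at day 0 (27.3% and 16.1%), and 5 were lower at day 2 (12.7% and 31.5%) and 4 at day 4 (18.3% and 21.9%), with none higher. Ngfr fell most at day 2, from 3.24 and 3 FPKM in no Dex to 1.67 and 1.23 in Dex (-0.76 ± 0.08, adjusted p = 6.43e-07). For Dex against WT, 2 were higher and 1 lower at day 0 (19% and 30.8%), 2 and 2 at day 2 (12.2% and 17.2%), and 7 and 3 at day 4 (25.7% and 19.1%), the 3 being Foxd3, Ngfr and Tfap2c. The day 4 call of Tfap2c (-0.15) was lost with no filter (adjusted p = 0.0644) and in the 2 groups fitted alone (adjusted p = 0.17). That fit also lost the higher calls of Sox10 (adjusted p = 0.0923) and Tfap2b (adjusted p = 0.121).

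Within each line, day 6 was compared with day 0. In WT 5 genes were higher and 3 lower (43.6% and 34.5% over all genes), the 3 being Foxd3 (-3.20 ± 0.06 SE), Tfap2c (-2.71 ± 0.06) and Ngfr (-2.54 ± 0.08), with adjusted p of 3.68e-20, 3.67e-19 and 4.82e-16. Snai2 and Msx2 were not called in WT (0.10 and 0.09, adjusted p = 0.334 and 0.356), and the Tfap2a call (0.22, adjusted p = 0.0231) was lost on rescaling (0.16, adjusted p = 0.102) and without WT day 0 library 1 (0.23, adjusted p = 0.057) or 2 (0.21, adjusted p = 0.08) or WT day 6 library 2 (0.18, adjusted p = 0.135). In KO 7 were higher and the same 3 lower (45% and 35.4%), the 3 by less, with -0.84 ± 0.06 for Foxd3, -2.25 ± 0.06 for Tfap2c and -0.50 ± 0.08 for Ngfr. In no Dex 7 were higher and 2 lower (48% and 33.9%), and Ngfr was not called (0.17 ± 0.08, adjusted p = 0.0729). In Dex 7 were higher and 3 lower (46.4% and 34%). The comparison of day 6 with day 4 gave 5 higher and 3 lower in WT (41.7% and 25%), 8 and 1 in KO (34.9% and 30.5%), 8 and 0 in no Dex (36.8% and 31.1%), and 10 and 0 in Dex (37.4% and 27.7%). For day 4 against day 2 the calls were 5 and 3 in WT (34.3% and 25.6%), 6 and 3 in KO (35.5% and 28.7%), 5 and 3 in no Dex (33.7% and 27.1%), and 6 and 3 in Dex (40.9% and 25.8%). These 2 step comparisons were added after the values by day had been seen. For the changes from day 0 to day 6, rescaling the libraries by their median ratio moved the median over all genes from between 0.09 and 0.17 to between -0.04 and -0.02, without reversing a call among the 10.

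**Figure D3:**
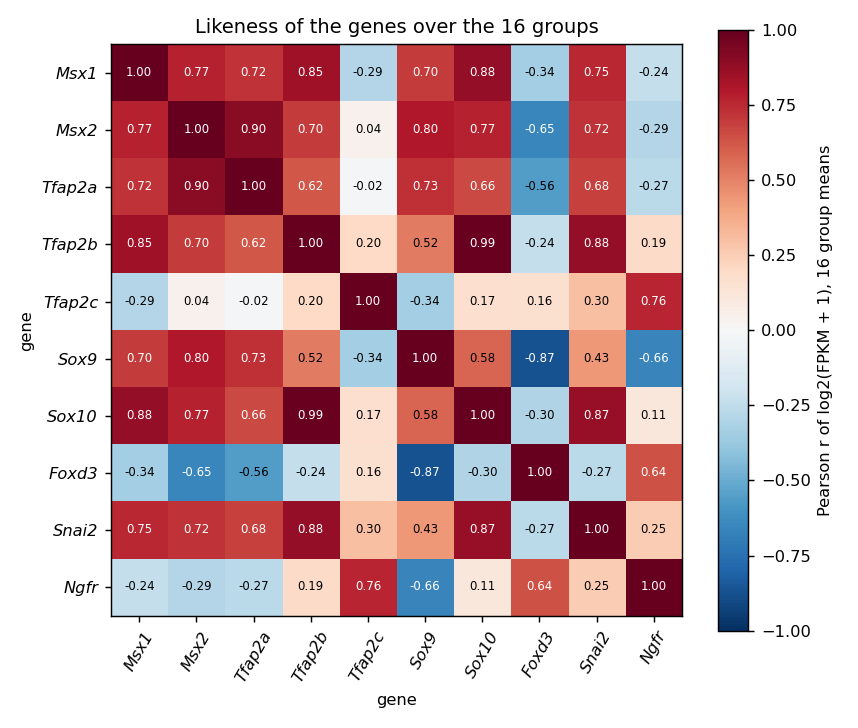
Pearson r between the 10 genes, computed on log2(FPKM + 1) over the 16 group means; both axes list the genes and colour gives r from -1 to 1. Tfap2b and Sox10 share the highest r, 0.99, and Sox9 and Foxd3 the lowest, -0.87.

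Likeness between genes was described over the 16 group means, which share libraries and the course of differentiation, so no test is given. Tfap2b and Sox10 were the most alike pair (Pearson r = 0.99), followed by Tfap2a with Msx2 (0.90) and by Tfap2b with Snai2 and Sox10 with Msx1 (both 0.88). Sox9 and Foxd3 were the most opposed (-0.87), in that Sox9 came on as Foxd3 went down. Among all tested genes, those most like Tfap2b were Unc5c, Cdh8 and Trim9 (r from 0.991 to 0.995), those most like Sox10 were Pcp4l1, Dlx2 and Wfdc1 (0.988 to 0.99), and those most like Msx1 were Ehd2, Ntf3 and Setbp1 (0.959 to 0.965). For Msx2 they were Crx, Cbln1 and Pard6a (0.934 to 0.942), and for Snai2 Fbxl8, Asb8 and Foxc1 (0.948 to 0.953). For Tfap2a they were C1qtnf12, Ndufaf4 and Zkscan6 (0.938 to 0.965), and for Tfap2c Dkkl1, Tle5 and As3mt (0.945 to 0.975). For Sox9 they were Galnt16, Tdrd7 and Sfrp1 (0.981 to 0.985), for Foxd3 Slc17a9, Gpx2 and Nit2 (0.899 to 0.949), and for Ngfr Casz1, Nfic and Rfx2 (0.917 to 0.935).

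Other genes of the border and the crest were read from lists that hold none of the 10. Beside their counts at day 6 stand those over all genes, 30.9% called higher and 34.2% lower in KO against WT. Of 12 further border specifier genes, 7 were higher and 1 lower in KO than in WT at day 6, with a median log2 change of 0.61. Irx1 (148.745 against 2.03 FPKM, log2 change 5.63 ± 0.11 SE, adjusted p = 1.02e-18) and Pax3 (32.895 against 0.555, 4.45 ± 0.06, adjusted p = 1.79e-21), which works with Zic1 in crest induction, led them. Gbx2, a hindbrain and border gene, was the one called lower (-0.35 ± 0.07, adjusted p = 0.000267). Of 25 other crest genes 21 could be tested, and 14 were higher and 7 lower, with a median of 0.87. Twist1 (20.145 against 1.57 FPKM, 3.04 ± 0.11, adjusted p = 1.43e-14), a gene of migrating cranial crest, and Nr2f2 (1.58 ± 0.06, adjusted p = 4.95e-14) rose most, and Cdh6 (-2.19 ± 0.05, adjusted p = 1.21e-17) and Kit (-1.46 ± 0.10, adjusted p = 1.21e-10) fell most.

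In Dex against no Dex at day 6, 2 of the 12 border genes were higher and 7 lower (median -0.29, over all genes 23.8% and 19%). Pax3 (3.805 against 19.46 FPKM, -2.09 ± 0.06 SE, adjusted p = 2.08e-15) and Irx1 (-1.77 ± 0.11, adjusted p = 2.59e-10) fell most, and Dlx5 (0.82 ± 0.10, adjusted p = 2.53e-06) and Dlx6 (0.48 ± 0.12, adjusted p = 0.0021) were the 2 higher. The other crest genes were divided, with 8 higher and 9 lower of 21 (median -0.15). Ets1 (-0.99 ± 0.14, adjusted p = 1.25e-05) fell most, and Lmo4 (0.84 ± 0.05, adjusted p = 3.68e-10) and Snai1 (0.55 ± 0.11, adjusted p = 0.000355), the relative of Snai2, rose most.

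Of 14 tested genes of ligands that induce the border, 7 were higher and 5 lower in KO at day 6. Wnt1 (58.685 against 1.48 FPKM, 4.59 ± 0.05 SE, adjusted p = 5.92e-23) and Wnt3 (2.96 ± 0.06, adjusted p = 5.16e-19) rose most, and Bmp4 (4.225 against 14.545 FPKM, -1.58 ± 0.33, adjusted p = 0.000278) and Fgf3 (-0.98 ± 0.15, adjusted p = 1.49e-05) fell most. With Dex, Bmp4 was higher than in no Dex (34.205 against 3.615 FPKM, 2.97 ± 0.33, adjusted p = 4.94e-07) together with Fgf15 (0.65 ± 0.05, adjusted p = 2.56e-09). Fgf8 (-1.65 ± 0.16, adjusted p = 6.76e-08) and Wnt1 (-1.32 ± 0.05, adjusted p = 1.17e-13) were lower, in all 4 higher and 7 lower.

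Markers of other tissues also differed between the groups, and their part in the results was not tested. In RNA from whole organoids, fewer cells of a type and less RNA per cell cannot be told apart. Summed levels are over every gene of a list, tested or not. For the counts of these lists, the day 6 shares over all genes were 30.9% higher and 34.2% lower in KO against WT. In Dex against no Dex they were 23.8% and 19%. All 9 genes of the dorsal midline and roof plate of the neural tube, where Msx1 and Msx2 are also active, were higher in KO than in WT at day 6 (median 1.31), led by Wnt1 and by Rspo1 (3.25 ± 0.11 SE, adjusted p = 2.53e-15). Their summed level was 13 to 13.4 FPKM in the WT libraries, 137.6 to 138.7 in KO, 198.3 to 199.5 in no Dex and 117.2 to 120.1 in Dex. Rspo3 carried the higher sum of no Dex (83.735 against 9.38 FPKM in KO, 3.03 ± 0.05, adjusted p = 5.69e-19): without it the sums were 128.3 to 129.3 in KO and 115 to 115.4 in no Dex. In no Dex against KO 3 of the 9 were higher and 5 lower (median -0.21, over all genes 21.1% and 27.9%), of which a pseudocount of 0.1 left 3 lower. With Dex 7 of the 9 were lower than in no Dex and 1, Bambi, was higher (0.32 ± 0.06, adjusted p = 0.000112). Of the 10 genes, 6 were also called lower with Dex, while Msx2 and, narrowly, Snai2 were called higher. Whether these changes and those of the roof plate genes are related was not tested. None of the 9 was at 0 at day 6.

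Eye field genes went the other way in part. Of 8, 5 were lower and 2 higher in KO at day 6, with Rax (0.3 against 118.17 FPKM, -6.52 ± 0.06 SE, adjusted p = 2.92e-23) and Six3 (-6.34 ± 0.07, adjusted p = 9.1e-23) lowest and Mab21l2 (3.73 ± 0.05, adjusted p = 2.3e-21) and Otx2 (0.95 ± 0.03, adjusted p = 6.3e-16) higher. With Dex 6 of 8 were higher than in no Dex, led by Rax (54.705 against 0.91 FPKM, 4.87 ± 0.06, adjusted p = 3.03e-20) and Lhx2 (3.09 ± 0.14, adjusted p = 1.64e-12), and Otx2 was lower (-0.29 ± 0.03, adjusted p = 1.43e-07). The summed level was 769.8 to 803.4 FPKM in WT, 531.6 to 533.4 in KO, 408.2 to 408.3 in no Dex and 625.5 to 625.8 in Dex. Without Lhx2 the sum was 541.5 to 563.7 FPKM in WT and 527 to 528 in KO, with Dex below KO at 470.6 to 471.6. In no Dex it was then 390.2 to 391.7.

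Most tested markers of surface ectoderm and placodes, tissues that can share border genes, were lower in KO. Of 11 tested genes of non-neural surface ectoderm, the tissue on the outer side of the border, 8 were lower and 2 higher, with Cldn6 (-3.40 ± 0.10 SE, adjusted p = 2.23e-16) and Epcam (-1.77 ± 0.06, adjusted p = 7.8e-15) lowest and Tfap2e (1.09 ± 0.09, adjusted p = 1.1e-09), a further AP-2 gene, and Dlx3 (0.44 ± 0.08, adjusted p = 3.77e-05) higher. The sum of the 14 listed was 99 to 103.2 FPKM in WT, 29.1 to 30 in KO, 30.4 to 31.4 in no Dex and 58.7 to 63.2 in Dex, and the epidermal gene Trp63 was listed at 0 in WT and Dex at day 6. Of 9 tested placode genes 7 were lower and 1 higher, Foxe3 (3.60 ± 0.07, adjusted p = 1.85e-18), and the sum of the 10 listed was 79.5 to 84.1 FPKM in WT against 24.7 to 25.7 in KO, 21.6 to 22.5 in no Dex and 36.5 to 41.9 in Dex. Without Pax2 the placode sum was 40.6 to 44 FPKM in WT and 24.3 to 25.3 in KO. It was then 21.3 to 22.3 in no Dex and 32.7 to 38.5 in Dex.

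Pigment cells and glia, which crest can form, were looked for by their markers. Of 5 tested pigment cell genes, which melanocytes share with the retinal pigment epithelium, 4 were lower in KO than in WT, led by Dct (-1.96 ± 0.07 SE, adjusted p = 2.6e-15) and Pmel (-1.88 ± 0.16, adjusted p = 2.17e-09). The same number were higher in Dex than in no Dex, led by Trpm1 (46.705 against 0.595 FPKM, 4.90 ± 0.12, adjusted p = 3.94e-16) and Pmel (4.70 ± 0.16, adjusted p = 2.31e-14). The sum of the 8 listed was 102.4 to 104.3 FPKM in Dex, 16.5 to 18 in WT, 2.4 to 2.6 in KO and 2.1 to 2.2 in no Dex, with Tyr listed at 0 in all 8 day 6 libraries. The pigment sum was highest in Dex, where Sox10 was lower than in KO and no Dex and higher than in WT. A link between them was not tested. Of 5 tested glial genes 2 were higher in KO, led by Fabp7 (189.13 against 13.565 FPKM, 3.71 ± 0.11, adjusted p = 5.66e-16), and 2 were lower, Aldh1l1 (-1.62 ± 0.14, adjusted p = 3.72e-09) and Slc1a3 (-0.28 ± 0.06, adjusted p = 0.000474). The sum of the 7 listed was 22.7 to 22.9 FPKM in WT, 196 to 201.9 in KO, 177.9 to 180.5 in no Dex and 79.8 to 81.8 in Dex, and without Fabp7 it was 9.2 to 9.3, 9.2 to 10.4, 10.3 to 10.4 and 7.4 to 8. The difference in the glial sum was thus that of Fabp7, which neural progenitors also express. S100b, a marker of mature glia, was listed at 0 in the KO, no Dex and Dex libraries of day 6.

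Tfap2c and Foxd3 are also active in stem cells, and Tfap2c in germ cells and trophoblast. Stem cell markers were lower in KO at day 6. Of 8 pluripotency genes 7 were lower and Sox2 higher by 0.10 (SE 0.04, adjusted p = 0.0385), with Dppa5a (-2.21 ± 0.05, adjusted p = 1.21e-17) and Tdgf1 (-1.96 ± 0.06, adjusted p = 4.03e-16) lowest. Their sum was 420.1 to 431.4 FPKM in WT, 269.1 to 271.9 in KO, 236.1 to 239.9 in no Dex and 247.4 to 256.6 in Dex. Without Sox2 the sum was 223.8 to 234.6 FPKM in WT and 58.6 to 60.6 in KO, then the lowest group. No Dex had 64.7 to 68.2 and Dex 77.1 to 81.2. Of 8 germ cell genes 3 were lower and none higher, and their sum was 19.1 to 20.4 FPKM in WT, 11.1 to 12.7 in KO, 13.5 to 17 in no Dex and 13.8 to 14.9 in Dex. Without Kit the germ cell sum was 9.9 to 11 FPKM in WT and 8.5 to 9.9 in KO. It was then 9.3 to 11.7 in no Dex and 10.3 to 10.9 in Dex, so the higher WT sum was largely that of Kit. The trophoblast list holds Tfap2c itself, and of its other 4 tested genes 3 were lower in KO, led by Hand1 (-1.53 ± 0.09, adjusted p = 2.77e-11). In Dex against no Dex those other 4 were all higher, led by Hand1 (0.49 ± 0.09, adjusted p = 0.000312) and Ascl2 (0.39 ± 0.15, adjusted p = 0.0435), where Tfap2c was not called. All 8 genes of extraembryonic endoderm were lower in KO, led by Sox17 (-4.19 ± 0.14, adjusted p = 2.04e-15) and Gata4 (-3.37 ± 0.07, adjusted p = 9.9e-19), with a sum of 255.5 to 257.5 FPKM in WT against 41.1 to 42.4 in KO, 23.9 to 24.3 in no Dex and 40.5 to 40.6 in Dex. All 8 were already lower in KO at days 0, 2 and 4, with medians of -1.34, -1.76 and -1.54 (over all genes 29.8%, 21.3% and 24% lower). At day 6, 7 of the 8 were higher in Dex than in no Dex (23.8% over all genes). Of 4 tested mesoderm genes 1 was higher and 2 lower in KO, near the shares over all genes, and the sum of the 8 listed was 16.9 to 17.2 FPKM in WT and between 3.4 and 3.9 in the other groups. Without Kdr the mesoderm sum was 5.2 to 5.8 FPKM in WT and between 3.1 and 3.7 in the other groups.

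**Figure D4:**
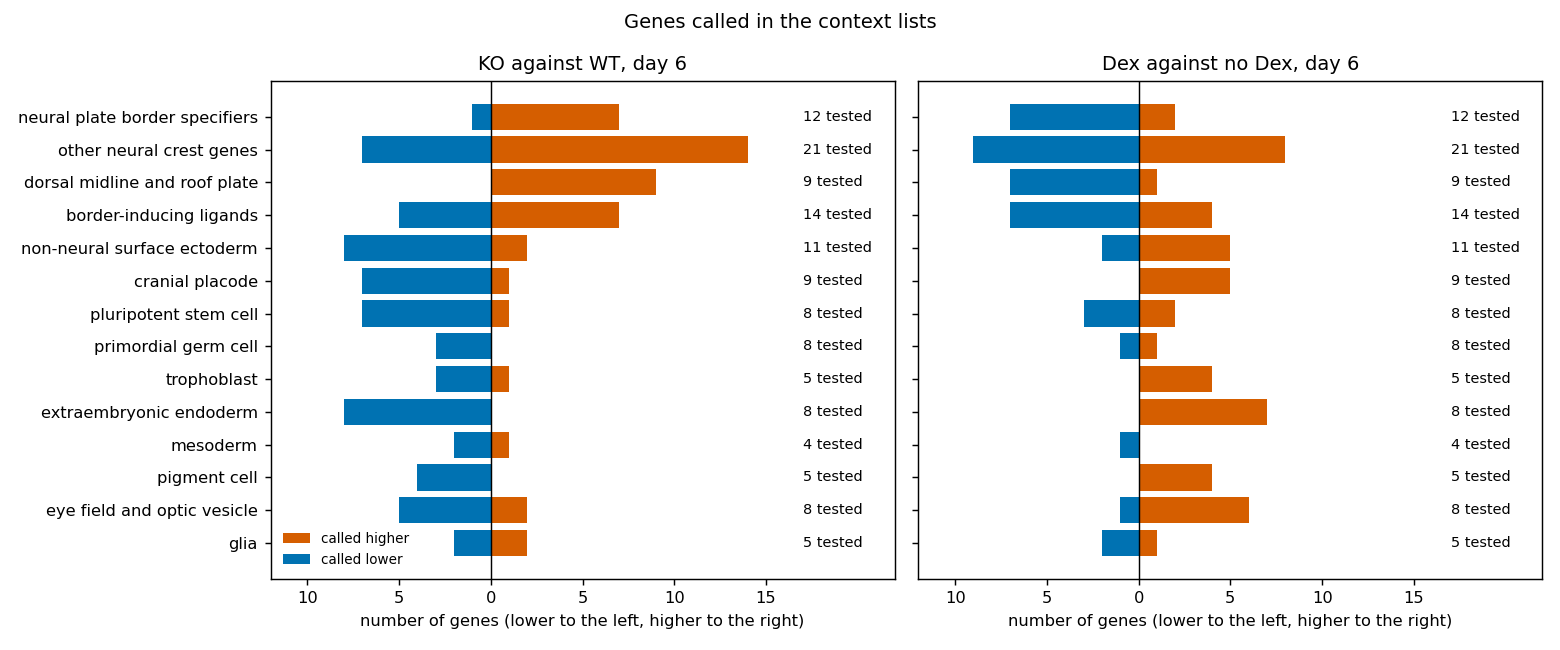
Number of genes called at day 6 in each list of other border, crest and tissue genes, for KO against WT and for Dex against no Dex. Bars to the right count genes called higher, bars to the left genes called lower, and the text gives the number tested. All 9 roof plate genes stand to the right in KO against WT, and 7 of them to the left in Dex against no Dex.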

How the data were processed

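The authors deposited FPKM for 55492 genes in 32 libraries, to 2 decimals. The unit follows the deposited table's name and values. STAR, Cuffdiff and mm10 are named, with no version, per the submitters' processing notes, and reads were paired-end per the labels. Further settings are not given in the sources used here. No value column was left unmapped.

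The members and the context lists were chosen with earlier results of these data known. The members are genes named for this work; the text also names Mettl3, the 3 genes most like each member, and per list the 2 called genes that rose most and the 2 that fell most. Trp63, Tyr and S100b were named outside it, as markers listed at 0, after their values were seen. Some list genes within this rule are not reported singly here. Comparisons of day 4 with day 2 and of day 6 with day 4 were added after the values were seen.

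Tests used limma 3.58.1 in R 4.3.3 (lmFit, contrasts.fit, eBayes with trend) on log2(FPKM + 1). Genes with at least 1 FPKM in 2 libraries were tested (16276), in 1 fit of 16 group means with 16 residual degrees of freedom, with Benjamini-Hochberg adjustment over all of them. The fit was tested on simulated data. The depth of each library was read from the spacing of low values, of which 87.2% to 90.1% per library lay within 0.2 of a whole fragment (40% if evenly spread). Duplicates correlated at r from 0.9958 to 0.9976, and their squared differences were 1.37 to 12.41 times counting noise, largest in WT day 0. Annotation is GENCODE M21, and promoters are from RefSeq, matched by symbol. Alternatives were rescaling by median ratios, adding 0.1 in place of 1, testing every gene above 0, testing those of mean FPKM 5 or more, fitting only the groups compared, blocking on replicate number, requiring a log2 change of 1, and leaving out each library.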

Additional observations from a re-analysis of the deposited data

Results flagged for a closer look

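The difference between KO and WT itself differed between day 6 and day 0 for all 10 genes (limma interaction, adjusted p under 0.05; 31.1% of all genes higher and 25.8% lower). On the log2(FPKM + 1) scale the interaction was 4.19 for Msx1, 3.46 for Tfap2b, 3.21 for Sox10, 2.36 for Foxd3, 2.17 for Msx2, 2.04 for Ngfr, 1.55 for Snai2, 1.44 for Tfap2a, 0.47 for Tfap2c and -0.48 for Sox9.

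The difference between Dex and no Dex also differed between these days for 7 genes (22.7% of all genes higher and 25.9% lower). The interaction was -1.81 for Tfap2b, -1.67 for Ngfr, -1.59 for Foxd3, -1.08 for Sox10, -0.64 for Msx1, -0.16 for Sox9 and 1.30 for Msx2. With a pseudocount of 0.1 those of Sox10, Msx1 and Sox9 were no longer called, and that of Sox9 was also lost with no filter, in the fit of the compared groups alone and without any of 6 of its 8 libraries.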

How the results depend on the processing

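No call among the 10 genes changed direction under any alternative run. Counts of called genes were as follows where they moved by over 1.5 times. A mean FPKM of at least 5 leaves only Tfap2c, Sox9, Foxd3 and Msx1 to be tested. It gave 1 for KO against WT at day 0 and 4 at days 4 and 6, 1 for no Dex against KO at day 0 and 3 at day 6, and for Dex against no Dex 1, 2, 1 and 3 at days 0, 2, 4 and 6. Dex against WT gave 1, 1, 4 and 4. Day 6 against day 0 gave 4 in each line, day 4 against day 2 gave 3 in WT and 4 in the others, and day 6 against day 4 gave 3 in Dex and 4 in the others. The interactions gave 4 (KO) and 3 (Dex). Asking for a change of at least 1 left 0, 0 and 2 for KO against WT at days 0, 2 and 4. It left 0, 0, 0 and 2 for no Dex against KO, 0, 0, 0 and 5 for Dex against no Dex, and 0, 0 and 2 for Dex against WT at days 0, 2 and 4. It left 5 for day 6 against day 0 in WT, 1 for day 6 against day 4 in WT, and for day 4 against day 2 left 3 in WT, 5 in KO, 5 in no Dex and 4 in Dex.

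The compared groups fitted alone gave 1 for KO against WT at day 0, 0 and 2 for no Dex against KO at days 2 and 4, 3 for Dex against no Dex at day 2 and 1 for Dex against WT at day 2. Rescaling gave 1 and 2 for no Dex against KO at days 0 and 2, no filter gave 2 at day 2, and a pseudocount of 0.1 gave 4 for the Dex interaction. Leaving out each library gave 1 to 2 calls for no Dex against KO at day 0, 1 to 3 at day 2, 2 to 4 for Dex against no Dex at day 4, 2 to 3 for Dex against WT at day 2 and 6 to 9 at day 4; the lowest counts came without KO library 2 or no Dex library 1, without KO library 1 or no Dex library 2, without either no Dex library or Dex library 1, without either WT library, and without Dex library 1, in that order. The lone library left is assumed to vary like the other groups. Day 6 counts of the context lists moved in 51 cases and stayed in 45 with a mean FPKM of at least 5. They moved in 13 and stayed in 99 with the compared groups alone, and in 12 and 100 with a pseudocount of 0.1. No filter moved 5, rescaling 3 and the replicate block 1. The cause was not tested.

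With a replicate block no count moved by over 1.5 times: KO against WT at day 6 kept 10 calls and Dex against no Dex 8. Deviations of same-numbered libraries correlated at -0.09 to 0.13 over 120 pairs of groups, and sharing a number therefore does not pair libraries. Among 814 alternative values of results not called, 30 (from 23 results) had the opposite sign, counting only sizes of at least 0.005 in both, and no reported value among them was over 0.17 in size. The test for an outlying library needs more than the 2 libraries of a group and was not run. The duplicates of WT day 0 differed most, by 12.41 times counting noise against 1.37 to 3.83 in the other groups.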
